A study of Rattus norvegicus with 12 samples.

Results

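Chemokines are small secreted proteins that guide leukocytes, and their receptors read those cues on the leukocyte surface. The set described here holds every gene of a rat expression array whose symbol is Ccl, Ccr, Cxcl, Cxcr, Cx3cl, Cx3cr, Xcl or Xcr followed by digits. Its genes were picked by name, with no measured value, though the set itself was chosen with earlier results of these data known. The rule gave 41 of the 14217 genes that had a probe set naming 1 gene. The 41 were 29 ligands and 12 receptors, measured by 53 probe sets. A further 11 rat genes of these families, the lymph node receptor Ccr7 among them, were not analysed here. Ccl19, Ccl21, Cxcl13 and Cxcr5, which organise lymph nodes, were kept apart from the other 37.

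Abdominal mammary glands, taken whole from female Sprague-Dawley rats at postnatal day 64, gave the RNA. Rats ate casein, the main milk protein, or soy protein isolate from day 30, all were ovariectomized on day 50, and some of each diet group then received estradiol (E2) from an implanted osmotic pump. That gave 4 groups, casein with and without E2 and soy with and without E2, and each group has 3 arrays hybridised with pooled RNA. The comparisons ask what E2 and soy, separately and together, did to gland gene expression in animals without ovaries. How many glands entered a pool, and whether pools shared animals, is not given in the labels, and the p-values here describe only how much pools vary, which may be technical. One label field names hepatic expression, but the arrays' source is given as mammary gland.

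In lymphoid tissue, stromal cells make Ccl19 and Ccl21, which draw T cells and dendritic cells through Ccr7, and Cxcl13, which draws B cells through Cxcr5. In other tissues, including the mammary gland, macrophages, mast cells, fibroblasts and epithelium release inflammatory chemokines such as Ccl2, Ccl5 and Cxcl1, which bring in monocytes, T cells and neutrophils. The abdominal gland of rodents lies around a lymph node, so chemokines of both kinds can be present in its RNA.

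Values are log2 values that the deposited table gives centred on each probe set's median over the 12 arrays. A value of 0 is therefore the middle array for that gene, and no gene's level can be set against another's or called present or absent, the defining markers of mammary tissue included. Changes are log2 differences between group means ± SE from limma fitted to all 14217 genes, with p adjusted by Benjamini-Hochberg over all of them, and a gene passed at an adjusted p under 0.05. In whole-gland RNA, fewer cells of a type and less RNA per cell cannot be told apart. The number of arrays limits the precision.

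Features of the arrays bear on every comparison. Casein plus E2 pools 2 and 3 were almost the same array: the SD of their difference was 0.163 and 0 probe sets differed by over 1, against 0.302 and 355 in the next most alike pair. They were averaged and counted as 1 sample, which leaves n = 2 for casein plus E2. The arrays were also divided at 0 in the mean of 18 spike-in control probe sets. Because each probe set is centred on its median, a spread around 0 is built in, and the cut marks no clear gap. The means nearest to 0 were 0.065 (casein pool 3) and -0.09 (casein plus E2 pool 2). The extremes were 1.11 (casein pool 2) and -0.22 (soy plus E2 pool 1). On the high side were the 3 pools of casein without E2, soy pool 1, soy plus E2 pool 2 and casein plus E2 pool 1, and these 6 had lymphocyte scores, the mean of 20 B and T cell marker genes, of -1.29 to -0.86. The 6 arrays on the low side had scores of 0.65 to 2.16. Casein without E2 thus had no array on the low spike-in side. Casein pool 3 had a liver marker score of 5.92, against -0.39 to 0.29 on the other arrays. The part of liver RNA in the values of that pool was not tested.

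The chemokine genes varied more between arrays than most genes. Their median range over the 12 arrays was 1.22, against 0.61 over all genes, and 10 of the 41 spanned more than 2 log2 units. Ccl9 had the widest range, 5.09, followed by Cxcl13 at 4.65, Ccl19 at 3.68 and Ccl21 at 3.13. At the other end, the neutrophil chemokine Cxcl3 spanned 0.27.

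**Figure D1:**
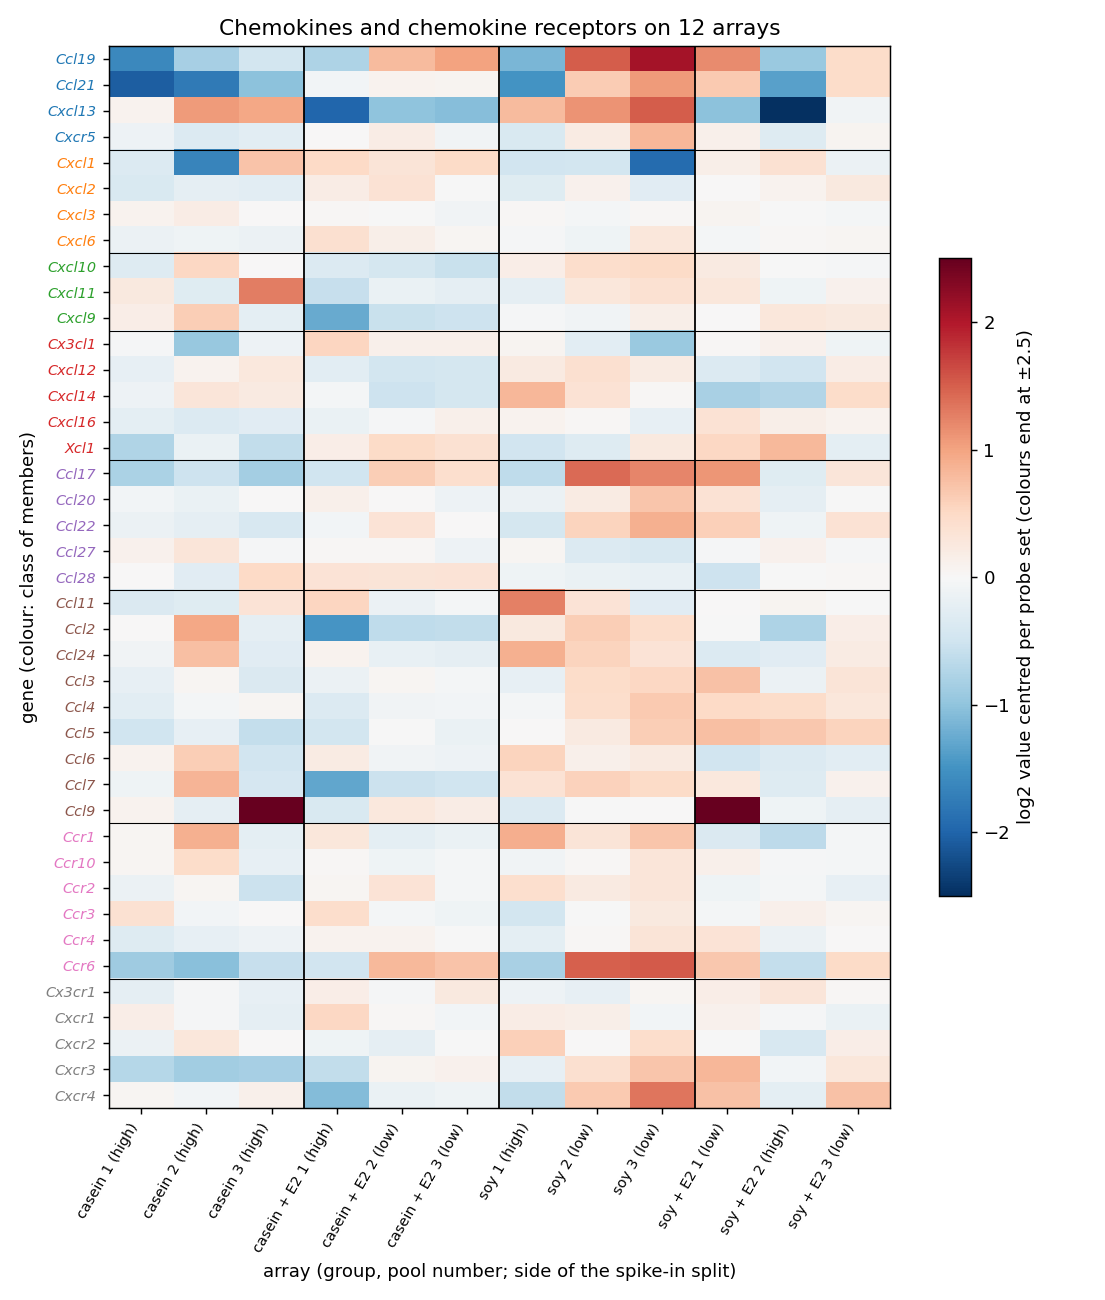
Centred log2 value of each chemokine and receptor gene (rows, grouped by role) on each of the 12 arrays (columns, by group); colour gives the value, with 0 the median array and colours ending at 2.5 on either side. Ccl9 is high on casein pool 3 and soy plus E2 pool 1, and Cxcl13 is low on the E2 arrays.

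Averaged over both diets, 4 of the 41 genes (9.76%) passed for E2, against 12.2% of all genes, so the set did not change more often than the array as a whole. Cxcl13 and Ccl2 fell and Cxcl2 and Cx3cr1 rose, which is 4.88% in each direction, against 6.73% of all genes higher and 5.51% lower. At an unadjusted p under 0.05 there were 15 of 41 (36.6%), against 29.0% of all genes. The median change of the 41 was 0.01, against 0.00 for all genes, with 21 higher and 20 lower. The count of 4 moved with single arrays: leaving out casein plus E2 pool 1 gave 0, and leaving out pool 1 or 2 of soy plus E2 gave 1. It was 2 without casein pool 1 or 2 or any soy pool, and 7 without casein pool 3 or pool 3 of soy plus E2.

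Cxcl13, the B cell attractant, had the largest E2 change of the set. Its values were 0.10, 1.06 and 0.97 in the casein pools and 0.78, 1.12 and 1.51 in the soy pools. With E2 they were -1.98, -1.01 and -1.06 on casein and -1.02, -3.14 and -0.10 on soy. Every array without E2 was above every array with E2, and Cxcl13 was the only gene of the 41 whose 6 samples without E2 and 5 with E2 did not overlap (2.44%, against 6.88% of all genes). It fell by 2.38 on the log2 scale (-2.38 ± 0.49, adjusted p = 0.0192), a 5.22-fold lower value. The change was -2.21 ± 0.73 (adjusted p = 0.134) in casein-fed and -2.56 ± 0.66 (adjusted p = 0.103) in soy-fed rats. Neither passed alone in this fit, which had no spike-in or lymphocyte term. Without soy plus E2 pool 3 the change on soy was -3.22 and passed (adjusted p = 0.0244). With the spike-in side as a term in the fit the average over both diets was -2.73 ± 0.35 (adjusted p = 0.0058). With the lymphocyte score as a term it was -2.50 ± 0.40 (adjusted p = 0.00995). By diet, the side term gave -2.91 ± 0.54 (adjusted p = 0.0411) on casein and -2.56 ± 0.45 (adjusted p = 0.0516) on soy. The lymphocyte term gave -2.67 ± 0.63 (adjusted p = 0.0587) and -2.32 ± 0.54 (adjusted p = 0.0823). Within a spike-in side the differences were -2.69 in casein (1 array against 3), and -3.92 (1 against 1) and -1.87 (2 against 2) in soy. Without casein plus E2 pool 1 the change was -2.15 and did not pass (adjusted p = 0.0811). Without both casein pool 3 and soy plus E2 pool 1 it was -2.42 (adjusted p = 0.0605).

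The other lymph node genes did not share this pattern. Ccl19, which guides T cells and dendritic cells, stood at -1.61, -0.83 and -0.46 in casein, -0.77, 0.79 and 1.0 in casein plus E2, -1.15, 1.51 and 2.07 in soy, and 1.18, -0.93 and 0.46 in soy plus E2. Ccl21, the other Ccr7 ligand, was at -2.06, -1.76 and -1.03, then -0.08, 0.09 and 0.08, then -1.49, 0.64 and 1.06, then 0.65, -1.36 and 0.46 in the same order. Cxcr5, the Cxcl13 receptor of B cells, was at -0.12, -0.35 and -0.27, then 0.00, 0.19 and -0.08, then -0.39, 0.21 and 0.84, then 0.13, -0.31 and 0.06. In each of soy and soy plus E2, 1 pool stood below the other 2 for these genes, and it was the pool on the high spike-in side. Their E2 changes were 0.23 ± 0.64 for Ccl19, 0.73 ± 0.52 for Ccl21 and 0.01 ± 0.19 for Cxcr5 (adjusted p of 0.851, 0.392 and 0.984). These averages pool changes of opposite sign, 1.03 in casein-fed and -0.57 in soy-fed rats for Ccl19, 1.62 and -0.16 for Ccl21, and 0.28 and -0.26 for Cxcr5, none of which passed. The B cell and T cell marker lists had 0 of 7 and 0 of 13 genes passing for E2, and the B cell median was 1.56 in casein-fed and -0.92 in soy-fed rats.

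**Figure D2:**
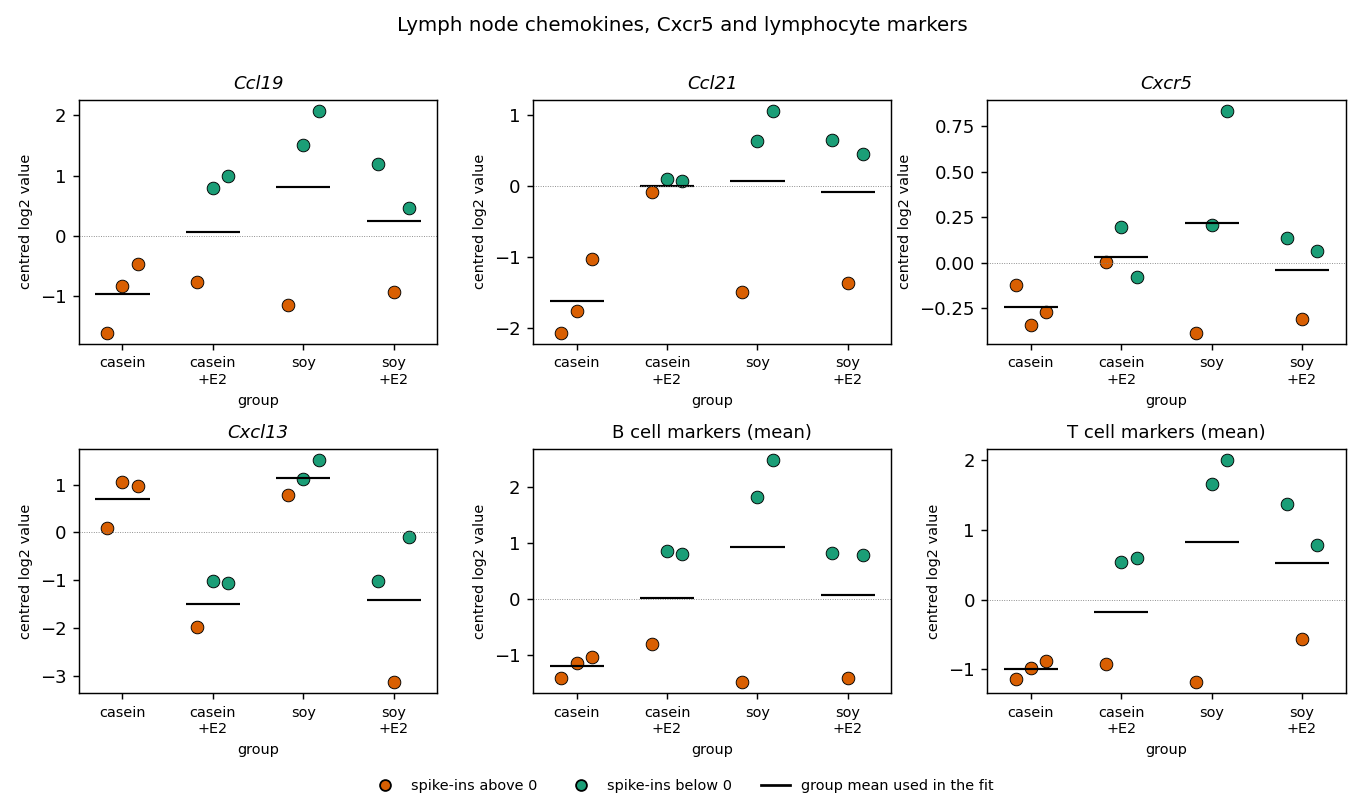
Centred log2 value (y axis) of Cxcl13, Ccl19, Ccl21 and Cxcr5 on each array by group (x axis); point colour gives the spike-in side of the array and the bar the group mean used in the fit. Cxcl13 separates by E2, with all arrays without E2 at 0.10 or above, while Ccl19 and Ccl21 separate by the colour of the points.

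The promoter of Cxcl13 is printed because it had the largest E2 change, with that of Cxcl2, which passed, and those of Ccl7 and Cxcl1, which did not pass but are close relatives of Ccl2 and Cxcl2. Each is the 250 bases before the annotated start in the RefSeq table of assembly GRCr8, which held a promoter for 32 of the 41 genes. Cxcl13 lies at chr14:13917921-13918170 (minus strand), Ccl7 at chr10:67513845-67514094 (plus strand), Cxcl1 at chr14:17479322-17479571 (minus strand) and Cxcl2 at chr14:17467256-17467505 (minus strand). Capitals mark 1 arm of an estrogen response element (GGTCA, read on either strand) or an NF-kappa-B motif.
Cxcl13: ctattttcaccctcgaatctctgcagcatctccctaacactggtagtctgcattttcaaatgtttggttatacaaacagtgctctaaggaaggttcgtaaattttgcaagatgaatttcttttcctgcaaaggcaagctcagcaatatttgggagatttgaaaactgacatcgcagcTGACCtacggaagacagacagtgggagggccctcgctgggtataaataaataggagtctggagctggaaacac
Ccl7: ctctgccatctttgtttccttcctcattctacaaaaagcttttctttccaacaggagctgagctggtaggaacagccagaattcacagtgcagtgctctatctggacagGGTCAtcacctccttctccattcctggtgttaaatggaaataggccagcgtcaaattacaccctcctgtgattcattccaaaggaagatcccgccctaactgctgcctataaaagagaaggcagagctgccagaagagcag
Cxcl1: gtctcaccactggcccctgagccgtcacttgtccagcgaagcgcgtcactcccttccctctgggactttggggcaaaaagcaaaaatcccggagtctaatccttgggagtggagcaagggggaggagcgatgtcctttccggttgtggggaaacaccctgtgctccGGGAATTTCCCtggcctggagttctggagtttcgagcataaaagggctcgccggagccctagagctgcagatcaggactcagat
Cxcl2: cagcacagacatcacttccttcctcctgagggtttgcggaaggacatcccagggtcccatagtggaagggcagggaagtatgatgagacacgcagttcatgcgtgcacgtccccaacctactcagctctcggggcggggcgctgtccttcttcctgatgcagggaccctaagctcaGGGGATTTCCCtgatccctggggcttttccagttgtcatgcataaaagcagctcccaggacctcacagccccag

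These windows differ in what they hold. In Cxcl13 the arm lies 73 to 69 bases before the start, and a TATAAA box lies 33 to 28 bases before it. In Ccl7 the arm is 141 to 137 bases before the start, an AP-1 motif 73 to 67 and a TATAAA box 34 to 29 bases before it. The NF-kappa-B motif is 84 to 74 bases before the start of Cxcl1 and 74 to 64 before that of Cxcl2, and neither of these windows held the arm. Cx3cr1, which passed and rose with E2, did hold the arm, 150 to 146 bases before its start, and its window is not printed. The arm was thus in genes of both directions. Motifs were searched on both strands of the 250 bases, and different motifs could overlap. The single arm is common: it was in 16 of the 32 promoters (50.0%) and in 35.4% of 33469 promoters of that length. The whole element, GGTCANNNTGACC, was in 0 of the 32 and in 0.0239% of all. The NF-kappa-B motif was in 8 of the 32 (25.0%: Ccl9, Ccl20, Ccr3, Cxcl1, Cxcl2, Cxcl6, Cxcl10 and Cxcl11), against 3.54% of all. TATAAA was in 9 (28.1%, against 12.9%), the AP-1 motif TGANTCA in 5 (15.6%, against 6.34%) and the interferon-stimulated element GAAANNGAAA in Ccl19 and Cxcl10 (6.25%, against 3.41%). A match describes these letters and is no evidence of binding.

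Among the ligands for monocytes, Ccl2 fell with E2. Ccl2, the main attractant of Ccr2-bearing monocytes, was at 0.00, 0.97 and -0.23 in casein and -1.48, -0.63 and -0.61 in casein plus E2. On soy it was at 0.25, 0.62 and 0.44 without E2 and -0.00, -0.76 and 0.17 with it. Within each diet the arrays did not overlap, but casein pools 1 and 3 lay within the range of soy plus E2. The average change was -0.97 ± 0.27 (adjusted p = 0.044), 1.95-fold lower, with -1.30 ± 0.40 in casein-fed and -0.63 ± 0.35 in soy-fed rats (adjusted p of 0.111 and 0.348). With the spike-in side as a term it was -1.13 ± 0.22 (adjusted p = 0.0179). The call was lost without any 1 of casein pools 1 and 2, casein plus E2 pool 1, the 3 soy pools and soy plus E2 pools 1 and 2, with changes of -1.03 to -0.75 (adjusted p of 0.0586 to 0.175).

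Ccl7, which acts on the same receptor and lies on chromosome 10 as Ccl2 does, had a like set of values. It was at -0.10, 0.85 and -0.43 in casein, -1.29, -0.54 and -0.50 in casein plus E2, 0.36, 0.58 and 0.48 in soy, and 0.26, -0.33 and 0.10 in soy plus E2. As for Ccl2, the E2 arrays lay below the others within each diet. The change of -0.74 ± 0.24 did not pass (adjusted p = 0.0732); with the spike-in side as a term it was -0.85 ± 0.22 and passed (adjusted p = 0.0398), as it did without casein pool 3 (-0.87, adjusted p = 0.0379). Macrophage markers moved both ways with E2: of 12, the LPS co-receptor Cd14 rose by 1.09 and the mannose receptor Mrc1 fell by 0.69. Of all genes 6.73% passed higher and 5.51% lower.

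Other inflammatory CC ligands had no E2 change that passed. The eosinophil attractants Ccl11 and Ccl24 were at -0.04 ± 0.26 and -0.46 ± 0.20, and Ccl6, a macrophage and granulocyte product of rodents, at -0.35 ± 0.18. Ccl3, Ccl4 and Ccl5, which attract T cells and monocytes, were at 0.07 ± 0.18, -0.02 ± 0.13 and 0.27 ± 0.13. Of the 9 genes of this class, 7 were lower with E2, and the median was -0.30, against 0.00 for all genes.

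Ccl9 stood apart on 2 arrays that were in different groups. It was at 4.70 on casein pool 3 and 3.02 on soy plus E2 pool 1, and between -0.38 and 0.27 on the other 10. Casein pool 3 also had a liver marker score of 5.92, while on soy plus E2 pool 1 that score was -0.39. Ccl9, a macrophage and myeloid chemokine of rodents, gave no call, and its E2 change of -0.30 ± 0.93 was -0.03 without these 2 arrays. The part of liver RNA in this value was not tested.

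The ligands for neutrophils, which bind Cxcr2, leaned the other way with E2. Cxcl2 was at -0.38, -0.22 and -0.26 in casein and 0.19, 0.36 and -0.01 in casein plus E2, with no overlap. On soy it was at -0.29, 0.10 and -0.28, and with E2 at 0.01, 0.09 and 0.25, so soy pool 2 overlapped the E2 arrays. It rose by 0.37 ± 0.09 (adjusted p = 0.0288), 1.29-fold. The change was 0.33 to 0.40 and did not pass (adjusted p of 0.0504 to 0.099) without any 1 of casein pool 1, casein plus E2 pools 1 and 2, soy pool 3 and soy plus E2 pools 1 and 2.

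Cxcl1, its neighbour on chromosome 14, spread more widely. It was at -0.34, -1.64 and 0.71 in casein, 0.49, 0.31 and 0.48 in casein plus E2, -0.48, -0.46 and -1.92 in soy, and 0.14, 0.38 and -0.14 in soy plus E2. On soy the E2 arrays were all above the others, but in casein pool 3 was above every E2 array. Its change of 0.98 ± 0.41 did not pass (adjusted p = 0.154), though it was larger than that of Cxcl2. Without casein pool 3, the pool with the high liver marker score, it was 1.26 and passed (adjusted p = 0.0455). Cxcl6 was at 0.17 ± 0.09 and Cxcl3, the mean of 5 probe sets, at -0.05 ± 0.06. The 4 measured granulocyte markers had 0 calls and a median change of -0.12.

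**Figure D3:**
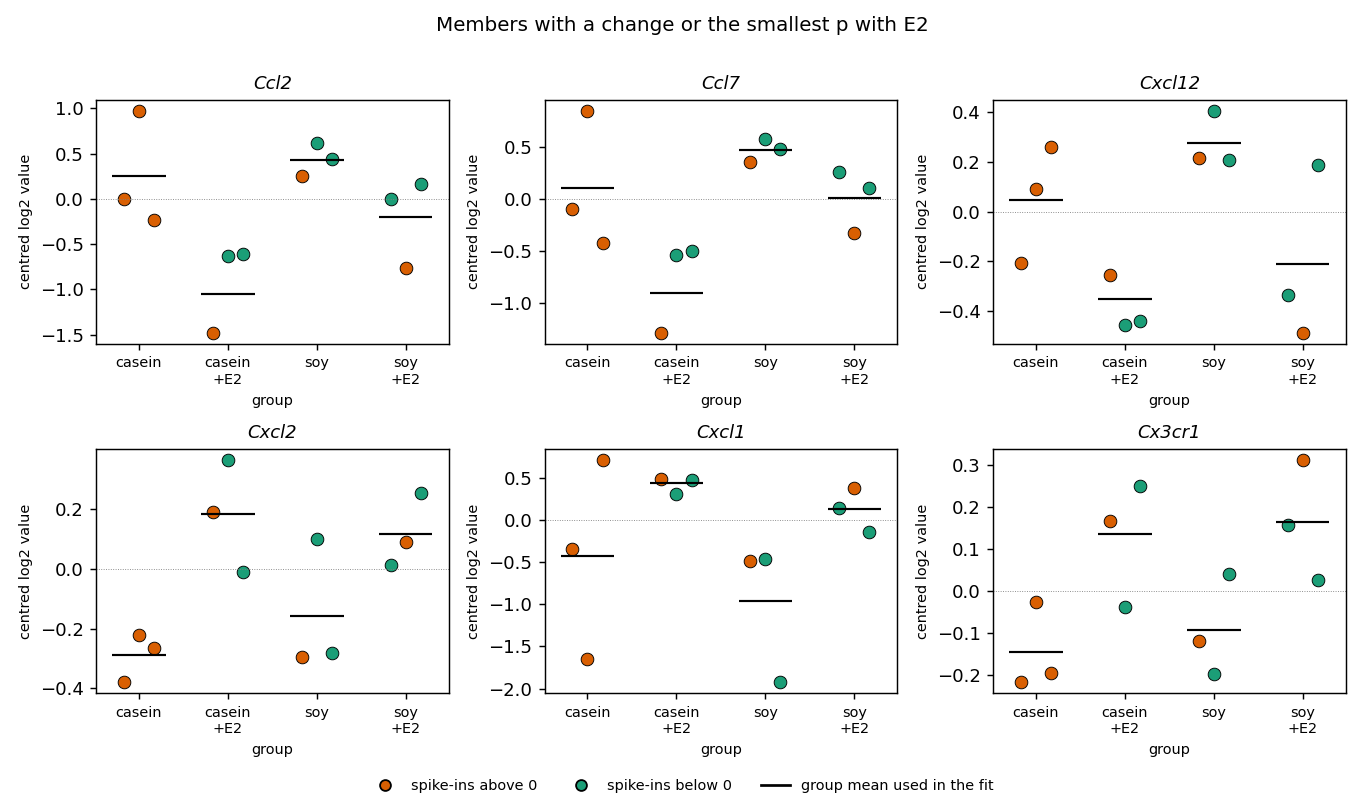
Centred log2 value (y axis) of 6 genes by group (x axis), with 1 point for each array, the colour its spike-in side and the bar the group mean used in the fit; axes differ in scale. Ccl2, Ccl7 and Cxcl12 lie lower in the E2 groups of each diet, and Cxcl2 and Cx3cr1 higher by less than 0.5.

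Cxcl12, the stromal ligand of Cxcr4 that holds leukocytes and progenitors in tissue, was near the threshold. It was at -0.21, 0.09 and 0.26 in casein, -0.25, -0.46 and -0.44 in casein plus E2, 0.22, 0.41 and 0.21 in soy, and -0.34, -0.49 and 0.19 in soy plus E2. All arrays with E2 except soy plus E2 pool 3 were below every array without E2. The change was -0.44 ± 0.14 (adjusted p = 0.0605). Its 3 probe sets gave -0.31, -0.45 and -0.57, and the third passed in the fit of single probe sets (adjusted p = 0.0205). Fibroblast markers, from cells that make Cxcl12, fell for 5 of 6 with E2 (median -0.57), against 5.51% of all genes. Their part in the Cxcl12 value was not tested.

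The remaining ligands without a lymph node role gave no call for E2. Xcl1, which natural killer and CD8 T cells release, was at -0.75, -0.16 and -0.62 in casein and 0.16, 0.49 and 0.38 with E2, and at -0.47, -0.32 and 0.24 in soy and 0.52, 0.80 and -0.24 with E2. Its change was 0.67 ± 0.21 (adjusted p = 0.0672). Of 9 natural killer and cytotoxic markers 2 rose, against 6.73% of all genes: the granzymes Gzma by 1.48 and Gzmb by 0.67. The median of the 9 was only 0.16, and their part in the Xcl1 value was not tested. Cx3cl1, a membrane-bound ligand of epithelium and endothelium, was at 0.55 ± 0.22, Cxcl16, the Cxcr6 ligand, at 0.23 ± 0.08, and Cxcl14, an epithelial and fibroblast ligand, at -0.58 ± 0.25 (adjusted p of 0.129, 0.102 and 0.157). The epithelial ligands Ccl20, Ccl27 and Ccl28 were at -0.05, 0.06 and 0.12, each within its SE.

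Of the interferon-induced ligands of Cxcr3, none passed for E2 in either diet. Cxcl9 was at 0.16, 0.62 and -0.24 in casein and -1.25, -0.56 and -0.52 in casein plus E2, and at -0.04, -0.10 and 0.14 in soy and 0.01, 0.28 and 0.24 in soy plus E2. The casein plus E2 arrays were the lowest 3 of the 12. The change in casein-fed rats was -1.07 ± 0.26 (adjusted p = 0.0619), with its 2 probe sets at -0.98 and -1.17, and in soy-fed rats 0.18 ± 0.23 (adjusted p = 0.708). The difference of these changes was 1.25 ± 0.35 and did not pass (adjusted p = 0.544). Without casein pool 3 the change in casein was -1.29 and passed (adjusted p = 0.0459). On average over both diets Cxcl9 was at -0.45 ± 0.17 (adjusted p = 0.118), and without casein pool 3 at -0.56 (adjusted p = 0.0484). Cxcl10 was at -0.49 ± 0.22 in casein-fed and -0.31 ± 0.19 in soy-fed rats, and Cxcl11 at -0.80 ± 0.39 and -0.05 ± 0.35. The Cxcl11 value in casein rested on casein pool 3, where the gene was at 1.29, and without that array it was -0.36 ± 0.26.

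Of the receptors, Cx3cr1 alone passed for E2 in the fit without a spike-in or lymphocyte term, and Cxcr4 passed with either term. Cx3cr1, carried by patrolling monocytes, tissue macrophages and some natural killer cells, was at -0.22, -0.03 and -0.20 in casein, 0.17, -0.04 and 0.25 in casein plus E2, -0.12, -0.20 and 0.04 in soy, and 0.16, 0.31 and 0.03 in soy plus E2. The E2 arrays were mostly higher, with overlap in both diets. It rose by 0.27 ± 0.08 (adjusted p = 0.0496), 1.21-fold, at the edge of the threshold. The call was lost without any 1 of the 3 casein pools, casein plus E2 pools 1 and 3, soy pools 1 and 2 and soy plus E2 pools 1 and 2, with changes of 0.23 to 0.30 (adjusted p of 0.055 to 0.161).

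Ccr1 and Ccr2, both receptors of monocytes, had their highest group mean in soy without E2. Ccr1 was at 0.90, 0.32 and 0.69 in soy and -0.37, -0.65 and -0.04 in soy plus E2, and at 0.04, 0.89 and -0.25 in casein and 0.29, -0.23 and -0.16 in casein plus E2. On soy the E2 arrays lay below the others, and on casein they overlapped. The changes were -0.99 ± 0.29 (adjusted p = 0.127) on soy and -0.18 ± 0.33 (adjusted p = 0.812) on casein. Ccr2, the Ccl2 receptor, was at 0.43, 0.22 and 0.31 in soy and -0.10, -0.06 and -0.20 in soy plus E2, with -0.16, 0.06 and -0.54 in casein and 0.05, 0.35 and -0.05 in casein plus E2. Its changes were -0.44 ± 0.14 on soy and 0.31 ± 0.16 on casein, and their difference was -0.75 ± 0.21 (adjusted p = 0.544). The difference did not pass although the arrays of soy and soy plus E2 did not overlap.

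Cxcr4, the Cxcl12 receptor on most leukocytes, changed its call with the spike-in side. It was at 0.04, -0.06 and 0.13 in casein, -1.08, -0.17 and -0.11 in casein plus E2, -0.62, 0.65 and 1.33 in soy, and 0.74, -0.25 and 0.73 in soy plus E2. The lowest array in each of the last 3 groups was the one on the high side. The average E2 change was -0.35 ± 0.35 (adjusted p = 0.555). It was -0.65 ± 0.15 (adjusted p = 0.0287) with the spike-in side as a term and -0.47 ± 0.10 (adjusted p = 0.0175) with the lymphocyte score as a term. In casein-fed rats alone the change was -0.65 ± 0.52 (adjusted p = 0.54). With the spike-in side as a term it fell by 1.25 (-1.25 ± 0.23, adjusted p = 0.0402), and with the lymphocyte score as a term by 1.15 (-1.15 ± 0.15, adjusted p = 0.0154). Casein without E2 had no low-side array, so the fit with the side takes the side difference from the other groups. Within the high side the casein difference was -1.12 (1 array against 3). In soy-fed rats the change with the side as a term was -0.05 ± 0.19. The difference between diets, 1.20 ± 0.30, did not pass (adjusted p = 0.623). The other receptors, Ccr3, Ccr4, Ccr6, Ccr10, Cxcr1, Cxcr2 and Cxcr3, had average E2 changes of -0.30 to 0.30, all with an adjusted p over 0.2.

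Within each diet alone no chemokine or receptor passed for E2 by limma in the fit without a spike-in or lymphocyte term. In casein-fed rats this was 0 of 41, against 2.43% of all genes. There were 9 of 41 (22.0%) at an unadjusted p under 0.05, against 19.6%, and 20 of 41 (48.8%) whose groups did not overlap, against 39.8%. In soy-fed rats it was 0 of 41, against 0.218% of all genes, with 10 (24.4%) at an unadjusted p under 0.05, against 20.6%, and 10 (24.4%) without overlap, against 24.6%. The difference of the E2 changes gave 0 of 41, against 0.0% of all genes, with 3 (7.32%: Cxcl9, Ccr2 and Cxcl6) at an unadjusted p under 0.05, against 6.53%. These shares lay near those of the whole array. Without casein pool 3 the count in casein-fed rats was 1, and without soy plus E2 pool 3 that in soy-fed rats was 3, when 760 of all genes (5.35%) passed.

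**Figure D4:**
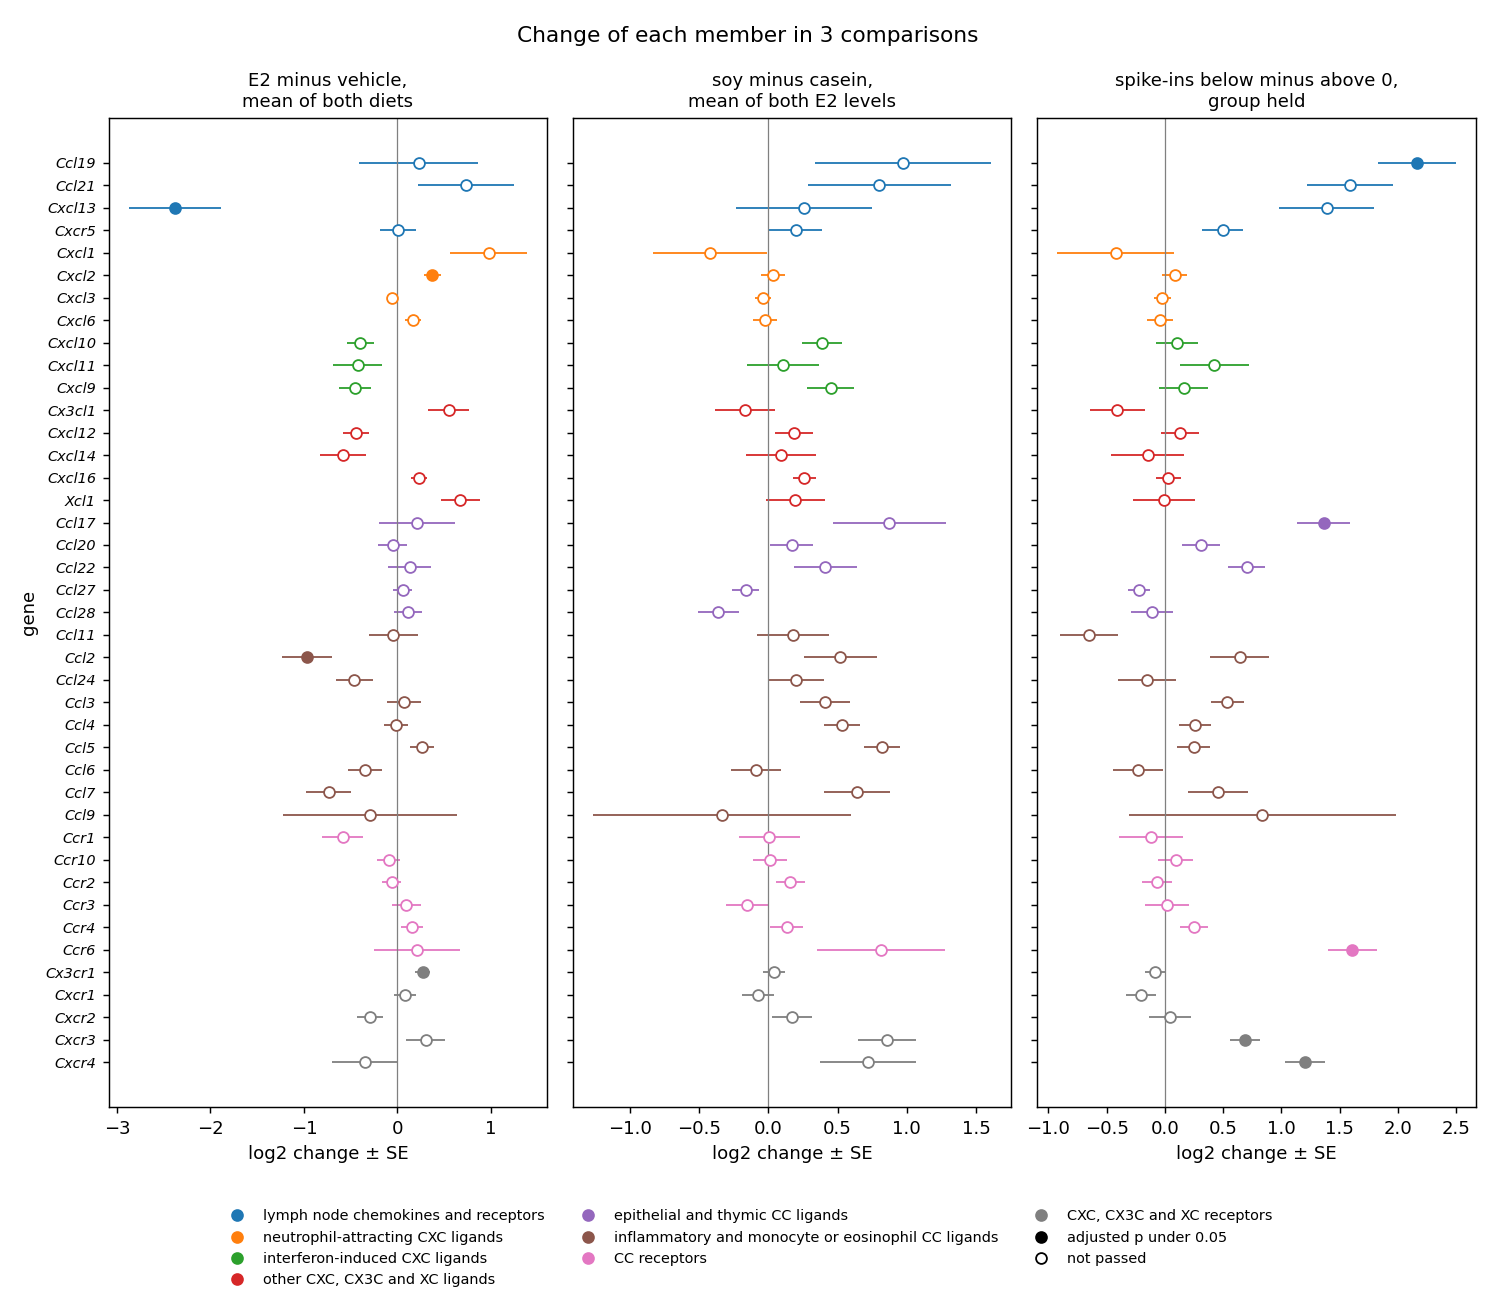
Log2 change ± SE of each of the 41 genes (rows) for E2 averaged over both diets, soy averaged over both E2 levels and the spike-in side, with filled points for an adjusted p under 0.05. E2 has 4 filled points with Cxcl13 the farthest from 0 at -2.38, soy has 0, and the spike-in side has 5, all to the right of 0.

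For soy against casein no chemokine or receptor passed by limma, and few genes of the array did. Without E2 it was 0 of 41, against 0.0% of all genes, and with E2 0 of 41, against 0.00703% (1 gene). At an unadjusted p under 0.05, without E2 there were 9 of 41 (22.0%), against 10.4% of all genes: 8 were higher (19.5%, against 7.21%) and 1, Ccl27, lower (2.44%, against 3.14%). With E2 there were 6 of 41 (14.6%), against 5.1%. The groups did not overlap for 4 genes without E2 (9.76%, against 13.3%) and for 13 with E2 (31.7%, against 23.3%). Because casein without E2 had only high-side arrays, soy and the spike-in side are partly confounded in these counts. Without soy pool 1 the count without E2 was 5 (Ccl5, Ccl17, Ccl22, Ccr6 and Cxcr3), and 327 of all genes (2.3%) passed. Soy without E2 then has only low-side arrays, so that in this fit soy and the side cannot be told apart.

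Ccl5, the T cell and monocyte attractant that activated T cells and natural killer cells secrete, had the smallest p of the set in both soy comparisons. It was at -0.50, -0.20 and -0.60 in casein and 0.01, 0.23 and 0.61 in soy. With E2 it was at -0.46, -0.01 and -0.16 on casein and 0.75, 0.67 and 0.55 on soy. Every soy array was above every casein array at the same E2 level, and also across E2 levels. The changes were 0.71 ± 0.17 (adjusted p = 0.398) without E2 and 0.93 ± 0.19 (adjusted p = 0.397) with E2, and neither passed. Without soy pool 1 the change without E2 was 0.85 and passed (adjusted p = 0.0479).

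The average over both E2 levels was added as a comparison after the values of Ccl5 were seen. Ccl5 was at 0.82 ± 0.13 (adjusted p = 0.245, unadjusted p = 9.4e-05), a 1.77-fold higher value. It was the only gene of the 41 without overlap (2.44%, against 0.521% of all genes, which is 74 genes). Across the set the average gave 0 of 41 passing, against 0.0% of all genes, and 8 (19.5%) at an unadjusted p under 0.05, against 7.07%. Of these, 7 were higher (17.1%, against 4.18%) and 1, Ccl28, lower (2.44%, against 2.89%). In all, 31 of 41 were higher on soy, with a median of 0.18, against -0.01 for all genes.

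Markers of lymphocytes were also higher on soy on average, more so without E2. The B cell and T cell lists had median soy changes of 1.29 and 1.27, with 0 calls in either. Without E2 these medians were 2.47 and 1.83, and with E2 0.10 and 0.72. Casein without E2 had only high-side arrays, so soy and the spike-in side are partly confounded in these medians. Soy pool 1, on the same high side, had B and T cell scores of -1.48 and -1.18. The casein pools were no lower, at -1.41 to -1.03 and -1.14 to -0.88. The natural killer list had a median of 0.22, again with 0 calls, and scores of -0.46 to -0.37 in casein, -0.24 to 0.25 in casein plus E2, -0.35 to 0.35 in soy and 0.17 to 0.70 in soy plus E2. With the spike-in side as a term the Ccl5 average was 0.72 ± 0.13, and with the lymphocyte score as a term 0.68 ± 0.12 (adjusted p of 0.805 and 0.823). Within the high side the soy differences of Ccl5 were 0.44 without E2 (1 array against 3) and 1.13 with E2 (1 against 1), and within the low side 0.73 with E2 (2 against 1). These differences have no test, and their direction follows from the lack of overlap.

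Ccl4 and Cxcr3 had the next smallest p in the soy average. Ccl4, which T cells, natural killer cells and macrophages release, was at -0.27, -0.05 and 0.04 in casein, -0.34, -0.09 and -0.06 in casein plus E2, -0.04, 0.43 and 0.65 in soy, and 0.51, 0.47 and 0.28 in soy plus E2. With the exception of soy pool 1, the soy arrays lay above the casein arrays, and the average change was 0.53 ± 0.13 (adjusted p = 0.52). Cxcr3, the receptor of activated T cells for Cxcl9, Cxcl10 and Cxcl11, was at -0.72, -0.87 and -0.83 in casein, -0.61, 0.06 and 0.11 in casein plus E2, -0.20, 0.40 and 0.69 in soy, and 0.84, -0.06 and 0.29 in soy plus E2. Its change was 1.10 ± 0.28 (adjusted p = 0.398) without E2 and 0.61 ± 0.31 (adjusted p = 0.999) with E2. Without soy pool 1 the first was 1.35 (adjusted p = 0.0479), and with the lymphocyte score as a term 0.55 ± 0.17 (adjusted p = 0.832). Cxcl9 was at 1.07 ± 0.26 (adjusted p = 0.527) with E2 and -0.18 ± 0.23 without it.

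**Figure D5:**
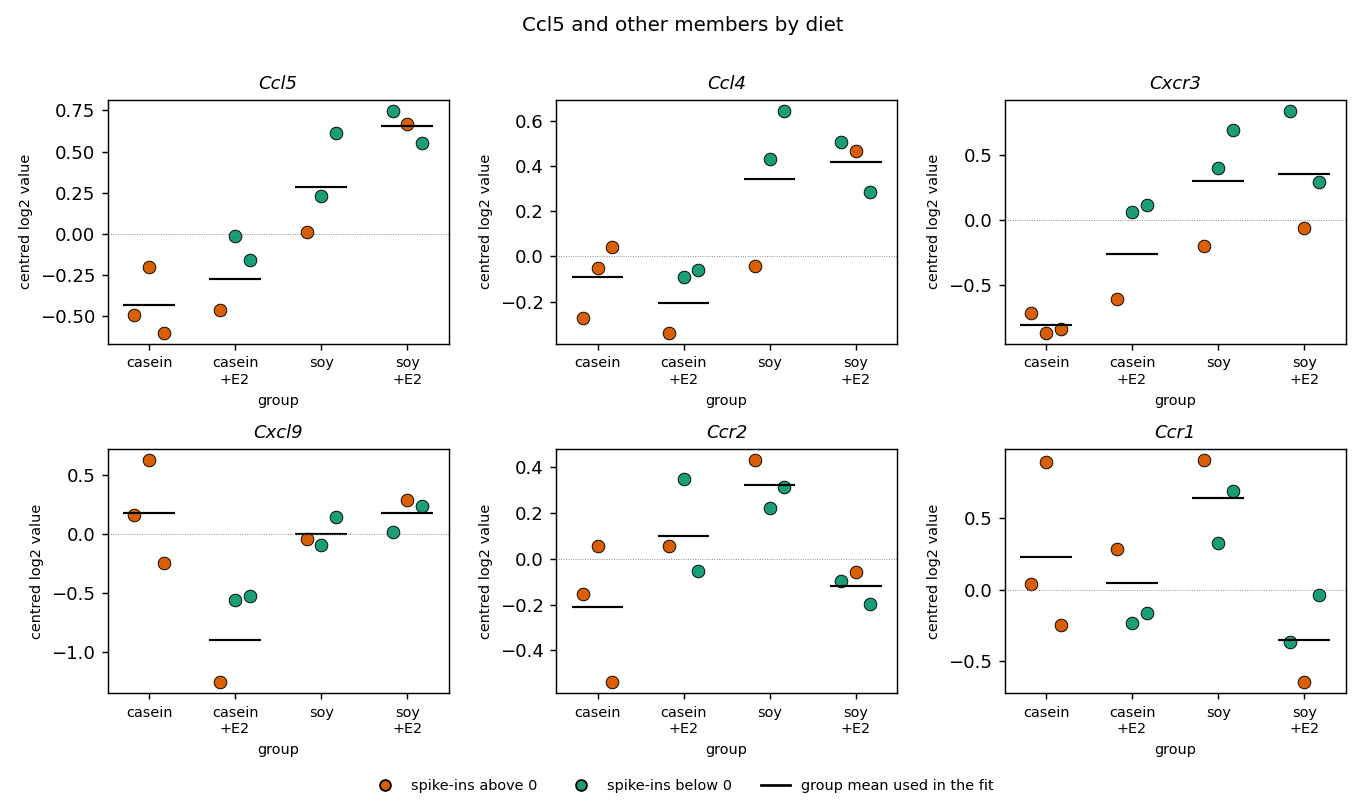
Centred log2 value (y axis) of 6 genes by group (x axis), with 1 point for each array, the colour its spike-in side and the bar the group mean used in the fit; axes differ in scale. Ccl5 is above 0 on all 6 soy arrays and below 0 on all 6 casein arrays, and Ccr2 has its highest group mean in soy without E2.

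The comparison in which chemokine genes passed most often relative to the array was between the spike-in sides, with the groups held. It was made with it known that lymphocyte transcripts split the arrays in the same way. A high share of genes of lymphocytes and lymph nodes was thus built into it and is no independent result. Low-side arrays had higher values of 5 of the 41 genes (12.2%, against 1.54% of all genes, or 1.51% counting only higher). The genes were the B and T cell receptor for Ccl20, Ccr6, at 1.61 ± 0.21 (adjusted p = 0.00842), Cxcr4 at 1.20 ± 0.17 (adjusted p = 0.0115), Ccl19 at 2.16 ± 0.34 (adjusted p = 0.0152), the dendritic cell ligand Ccl17 at 1.36 ± 0.23 (adjusted p = 0.0217) and Cxcr3 at 0.69 ± 0.13 (adjusted p = 0.0381). Ccr6 was at -1.05 to -0.48 (median -0.70) on the 6 high-side arrays and 0.48 to 1.53 (median 0.76) on the 6 low-side arrays. Ccl17 was at -0.85 to -0.31 (median -0.58) and at 0.31 to 1.43 (median 0.86). For these and for Ccl19, Ccl21, Ccl22 and Cxcr3 the sides did not overlap, which is 6 of 41 (14.6%), against 3.57% of all genes.

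Lymphocyte markers differed between the spike-in sides more strongly still. That split was known beforehand, so these counts describe it and do not test it. Of 7 B cell markers 7 were higher on the low side and of 13 T cell markers 10, with Ms4a1 at 3.63 ± 0.48, Cr2 at 3.40 ± 0.37 and Cd3e at 2.90 ± 0.34. With the lymphocyte score as a term in the fit, 0 of the 41 and 0 of all genes passed for the side. Ccl19 was then at -0.13, Ccr6 at 0.15, Cxcr4 at 0.13, Ccl17 at 0.03 and Cxcr3 at 0.31. The score and the side split the arrays in the same way, so this fit can hardly separate them. Its count of 0 does not decide between them. Without that term Cxcl13 was at 1.39 ± 0.41 (adjusted p = 0.194) and Ccl21 at 1.59 ± 0.37 (adjusted p = 0.0952) between the sides. The 2 probe sets of Cxcr5 disagreed in size, 0.84 and 0.14. The 3 probe sets of Cxcr4 gave 1.41, 1.16 and 1.03. Markers of high endothelial venules and lymphatic endothelium had 0 of 6 calls and a median of -0.01.

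Leaving out 1 array changed several of these side calls, and the count of 5 was 1 without soy pool 1 and 3 without soy pool 2 or 3. It was 2 when pool 1 or 2 of soy plus E2 was left out. Ccr6 passed without any 1 array. Cxcr4 did not pass without soy pool 1 (0.97, adjusted p = 0.0974). Ccl19 was at 1.72 to 2.39 and did not pass (adjusted p of 0.0507 to 0.142) without soy pool 1 or soy plus E2 pool 1 or 2. Ccl17 was at 1.02 to 1.56 and did not pass without casein plus E2 pool 1, any soy pool, or soy plus E2 pool 1 or 2 (adjusted p of 0.0515 to 0.164). Cxcr3 was at 0.61 to 0.72 and did not pass (adjusted p of 0.0563 to 0.31) without any 1 of the arrays other than casein plus E2 pools 2 and 3 and soy plus E2 pool 3.

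Other genes of the chemokine system were taken from lists of scavenger receptors, signalling and induction. Of 9 atypical receptors and chemokines outside the naming rule, 2 fell with E2 and 0 rose, against 5.51% of all genes lower and 6.73% higher. Ackr4, the scavenger of Ccl19, Ccl21 and Ccl25, fell by 1.05 (-1.05 ± 0.17, adjusted p = 0.0107), and Dpp4, the protease that trims Cxcl12 and other chemokines, fell by 1.0 (± 0.19, adjusted p = 0.0164). Of 27 receptor signalling genes, 1 rose and 2 fell, a share near the 12.2% of all genes that passed for E2. Jak2 rose by 0.48, and the receptor kinase Grk5 and the G protein regulator Rgs16 fell by 0.80 and 0.33. Of 17 genes that induce chemokines, 0 passed for E2 by limma, and their median change was 0.00. In the soy average 0 genes of the 3 lists passed. On the low spike-in side Rac2 and Grk6 of the signalling list and Ltb, Irf8 and Tnfaip3 of the induction list were higher, with Ltb, the lymphotoxin that organises lymph nodes, at 2.30 ± 0.24.

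Markers of other cell types that make chemokines changed with E2 alongside these genes, when 12.2% of all genes passed. Mast cell markers fell for 8 of 9 (median -1.46), with scores of 0.19 to 0.89 on the arrays without E2 and -1.29 to -0.21 on those with it. Adipocyte markers fell for 5 of 7 (median -1.05, Adipoq by 1.50), and blood endothelial markers for 3 of 8. Luminal epithelial markers rose for 5 of 11 (median 0.79) and basal ones for 4 of 8 (median 0.64). The dendritic cell list had 1 of 8 higher, Batf3 by 0.55, and the plasma cell list 0 of 4. Skeletal muscle markers had 0 of 9 calls and scores of -1.02 to 3.56, and liver markers 0 of 11. The part of these cell types in the changes of Cxcl13, Ccl2, Cxcl2 and Cx3cr1 was not tested.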

How the data were processed

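RNA of 12 arrays in 4 groups was compared, with groups and pool numbers taken from the sample titles. The authors deposited 1 table of 31099 probe sets, centred per probe set (largest median 5e-07). That the deposited numbers are log2 was inferred from their spread (widest range 9.85). How they were scaled and normalized is not given in the sources used here. GCOS, the Affymetrix software, is named without a version in the submitters' processing notes. Array medians were -0.0246 to 0.0112, and values were used as given. Because values are centred, background and detection filters could not be used. Of the probe sets, 20826 carried 1 gene symbol in the platform annotation, 436 several, 9780 were unnamed here and 57 were controls. Probe sets of a gene were averaged.

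A model of 4 group means was fitted across all genes with limma 3.58.1 in R 4.3.3 (lmFit, eBayes) to 11 samples with 7 residual degrees of freedom, two-sided. The spike-in side (mean over 18 control probe sets above or below 0) was added as a term for its own comparison. The code was tested on simulated data. The symbol rule uses no measured value, but the chemokine set, the other lists and the comparisons were chosen with earlier results of these data known. Named genes were the lymph node genes, Ccl5, those that passed and the 2 of smallest p where none did. Cxcl12, Ccl7, Cxcl1, Xcl1, Ccr1 and Cxcl9 values were added by role. Deviations of same-numbered pools from their group means had correlations of -0.42 to 0.46, 5 of 18 over 0.1. Pool numbers were not used to pair arrays in the main fit. These correlations also carry the split of the spike-in sides, so they cannot exclude a pairing. Promoters and positions are from RefSeq GRCr8, and gene identifiers matched it for 20758 probe sets and all 41 genes.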

Additional observations from a re-analysis of the deposited data

Results flagged for a closer look

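Ccr2, the receptor of monocytes for Ccl2, was flagged because its groups did not overlap in either soy comparison, with opposite signs. Lack of overlap in either direction held for 13.3% of all genes without E2 and for 23.3% with E2. The share of all genes with opposite signs was not counted. Soy minus casein was 0.53 without E2, with every soy pool above every casein pool, and -0.22 with E2, with every soy plus E2 pool below both casein plus E2 samples. The values were 0.43, 0.22 and 0.31 in soy, -0.16, 0.06 and -0.54 in casein, -0.10, -0.06 and -0.20 in soy plus E2, and 0.05, 0.35 and -0.05 in casein plus E2, where the last 2 were averaged into 1 sample. The test of the difference itself gave -0.75 ± 0.21 and did not pass (limma, adjusted p = 0.544).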

How the results depend on the processing

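The counts of passing chemokine genes moved with the processing. For E2 averaged over both diets (4) the count was 8 with array weights, 7 with 12 separate arrays, 0 without casein pool 3 and soy plus E2 pool 1, and 0 to 7 when 1 array was left out. For E2 in casein-fed rats (0) it was 1 with quantile normalization, 1 with the replicate block, 3 with array weights, 2 with 12 separate arrays, 2 with the spike-in side as a term, 1 with the lymphocyte score as a term, 1 without the 2 named arrays and 0 to 1 when 1 array was left out. For E2 in soy-fed rats (0) it was 6 with array weights and 0 to 3 when 1 array was left out. For soy without E2 (0) it was 11 with array weights and 0 to 5 when 1 array was left out, and for soy averaged over E2 levels (0) it was 2 with array weights and 0 to 0. Soy with E2 and the difference of the E2 changes stayed at 0, also at 0 to 0 with 1 array left out. For the spike-in side (5) the count was 1 with the replicate block, 0 with the lymphocyte score as a term, 3 without the 2 named arrays and 1 to 6 when 1 array was left out. Ccl19 changed sign there with the lymphocyte score as a term (-0.13), a fit that can hardly separate the score from the side.

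Array weights also raised the count over all genes, from 1741 to 3318 for E2 on average and from 0 to 1588 for soy without E2. Over all genes, E2 on average gave 313 without casein plus E2 pool 1 and 642 and 640 without soy plus E2 pool 1 or 2, and soy without E2 gave 327 without soy pool 1. The replicate block gave 5 chemokine genes and 2051 of all genes for E2 on average; 2 of 12 arrays correlated best with their own number. Over 23 alternatives the E2 call held in 21 for Cxcl13, 16 for Cxcl2, 14 for Ccl2 and 10 for Cx3cr1. The arrays left out as a pair, the soy average and its alternatives were chosen after seeing the data.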

Other observations

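The chemokine genes clustered in the genome: 10 of the 41 lay on chromosome 10 and 8 on chromosome 14, by the RefSeq annotation. Genes of 1 chromosome did not move as a block. On chromosome 14, Cxcl13 changed by -2.38 with E2 on average while Cxcl1 and Cxcl2 were at 0.98 and 0.37, and Cxcl9, Cxcl10 and Cxcl11 at -0.40 to -0.45. On chromosome 10, Ccl2 and Ccl7 were at -0.97 and -0.74 with E2, and Ccl3, Ccl4 and Ccl5 at -0.02 to 0.27. With soy on average the same groups were at 0.52 and 0.64, and at 0.41 to 0.82.

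The ligands Ccl17 and Ccl22, which share the receptor Ccr4 and lie on chromosome 19, were both without overlap between the spike-in sides. Ccl22 was at -0.44 to -0.07 on the high side and 0.02 to 0.88 on the low side, and its difference of 0.70 ± 0.16 did not pass (limma, adjusted p = 0.0921). Ccr4 was at 0.25 ± 0.12 (adjusted p = 0.465).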
